A study of Homo sapiens with 12 samples.

Results

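The 3 libraries described here came from N/TERT-2G cells transfected with a negative control siRNA, an RNA duplex meant to target no gene. They are 3 of the series' 12 RNA-seq libraries and were chosen by that label alone. The other 9 libraries received siRNA against ATF3, APOE or CXCL14, with 3 libraries for each target, and are not compared here. N/TERT-2G is a human skin keratinocyte line made immortal with the catalytic subunit of telomerase, so all libraries stem from a single line. The cells grew in a serum-free keratinocyte medium and were transfected at 40 to 50% confluency, with 100 pmol of siRNA per well, carried by 5 μl of a cationic lipid, and the medium was changed after 6 h. No library without siRNA or without lipid is included, so the levels are those of transfected cells. The labels number the replicates but do not say whether they were separate cultures, so the spread between them may be technical.

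Keratinocytes are the epithelial cells of the epidermis. Basal cells divide while attached to a basement membrane through integrins and laminin, and carry the keratin pair KRT5 and KRT14, whose genes are kept on by the transcription factor TP63. Cells that leave the basal layer switch to KRT1 and KRT10 and later make the proteins of the cornified envelope, while wounded or cultured epidermis makes KRT6, KRT16 and KRT17.

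Levels are given as the deposited FPKM, that is counts scaled to the listed gene length and to the library's total, as mean ± SD of the 3 libraries. FPKM divides by the listed gene length, so an order between genes depends on the length used, and with the length of the principal transcript the levels of named genes were 1 to 9.08 times as high, with a median of 1.24. A gene at 1 FPKM or more is described as expressed, and a gene at 10 FPKM or more as clearly expressed. The libraries held 16225691 to 16362761 counts over 58735 genes, so that 3 counts, the limit that a count of 0 allows in a library, corresponded to 0.183 to 0.185 CPM (counts scaled to the library's total). This limit covers counting error only. Pairwise Pearson correlations across protein-coding genes, on log2 CPM plus 1, ran from 0.997 to 0.998. Genes are not independent replicates, and these values are a description. Protein-coding genes took 98.4% of the counts. Of the 19951 protein-coding genes, 10160 (50.9%) were expressed, 4151 (20.8%) were clearly expressed, 307 reached 100 FPKM and 21 reached 1000 FPKM. Another 4454 (22.3%) had 0 counts in all 3 libraries. These shares over all protein-coding genes are the background for the counts of list members given below. The median protein-coding gene stood at 1.17 FPKM.

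The keratinocyte label was checked first. KRT14, the basal type I keratin (chromosome 17, 41582279 to 41586921, minus strand, hg38), was listed at 2884, 3225 and 3362 FPKM in libraries 1, 2 and 3. KRT5, its type II partner (chromosome 12, 52514575 to 52520687, minus strand), stood at 2492, 2774 and 2848 FPKM. KRT17, a keratin of stressed and cultured epidermis, stood at 1566, 1652 and 1802 FPKM. These 3 markers ranked 3, 4 and 11 among protein-coding genes, and library 1 was the lowest for each. TP63, the regulator of the epidermal programme, had 44.5, 45.2 and 47.3 FPKM, far below the keratins and above the median of 1.03 FPKM over the 1548 transcription factor genes.

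Most markers of the other cell types of skin were at or near 0, and FAP, COL1A1, CD14 and ISL1 were expressed. Among 12 fibroblast markers, COL1A2, COL3A1, THY1 and POSTN had 0 counts and 2 were expressed, FAP at 2.96 ± 0.514 FPKM and COL1A1 at 2.90 ± 0.450 FPKM. None of 8 melanocyte markers reached 1 FPKM, and TYR and DCT, enzymes of melanin synthesis, had 0 counts. Among 14 immune cell markers, PTPRC, CD3E, CD207 and TYROBP were among the 8 with 0 counts, and CD14 alone was expressed, at 1.19 ± 0.260 FPKM. None of 7 endothelial markers reached 1 FPKM, with CDH5 and TEK at 0 counts. Of 7 Merkel cell markers, ISL1 was expressed at 1.56 ± 0.170 FPKM, while ATOH1 and PIEZO2 had 0 counts. The summed level of these 5 lists ranged from 0.119 FPKM for the endothelial list to 6.47 FPKM for the fibroblast list. In bulk RNA, fewer cells of a type and less RNA per cell cannot be told apart.

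The 25 most abundant protein-coding genes held 18.3 ± 0.584% of the summed FPKM. They fell into a few recognisable groups. Mitochondrially encoded subunits of the respiratory chain supplied 9 of them, led by MT-CO1 at 4672 ± 445 FPKM and MT-CO2 at 4121 ± 423 FPKM. Keratins supplied 4, with KRT6A at 2154 ± 74.2 FPKM joining KRT14, KRT5 and KRT17. The actin cytoskeleton supplied 3. TMSB10, a thymosin that binds actin monomers, stood at 2207 ± 23.2 FPKM, ACTB at 1886 ± 57.0 FPKM and ACTG1 at 1470 ± 68.3 FPKM. The S100 family of small calcium-binding proteins supplied S100A11 at 1382 ± 38.6 FPKM and S100A2 at 1121 ± 31.4 FPKM.

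The remaining 7 were of mixed function. IFI6, an interferon-induced protein of mitochondria and the endoplasmic reticulum, ranked 6 at 2331 ± 741 FPKM and had the widest spread of the 25. SFN, the epithelial 14-3-3 protein, stood at 1616 ± 76.98 FPKM. FTL, the light chain of the iron store ferritin, had 1268 ± 210 FPKM and MT2A, a metallothionein that binds zinc and copper, had 1197 ± 28.5 FPKM. EEF1A1, which delivers aminoacyl-tRNA to the ribosome, had 1171 ± 68.8 FPKM. SLC7A5, the light chain of a transporter of large neutral amino acids, had 1087 ± 12.4 FPKM. LAMB3, the laminin beta 3 chain of the epidermal basement membrane, had 940 ± 36.6 FPKM. Among genes of other biotypes the highest were the mitochondrial transcripts MT-RNR2, MT-TN, MT-TC and MT-TP and the pseudogene RPS28P7, at 1533, 1037, 797, 625 and 584 FPKM. The RNA was selected on poly-T beads, and reads of a pseudogene and its parent may not be separable.

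Keratins form filaments from a type I and a type II chain, and each epithelium uses its own pairs. Of 28 type I keratin genes, 10 were expressed (35.7%) and 9 had 0 counts. Of 26 type II genes, 8 were expressed (30.8%) and 10 had 0 counts. The median member lay far below the median protein-coding gene, at 0.0507 FPKM for type I and 0.0205 FPKM for type II. The level was thus held by a few genes. The summed FPKM was 5018 ± 369 for type I and 5422 ± 280 for type II.

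**Figure D1:**
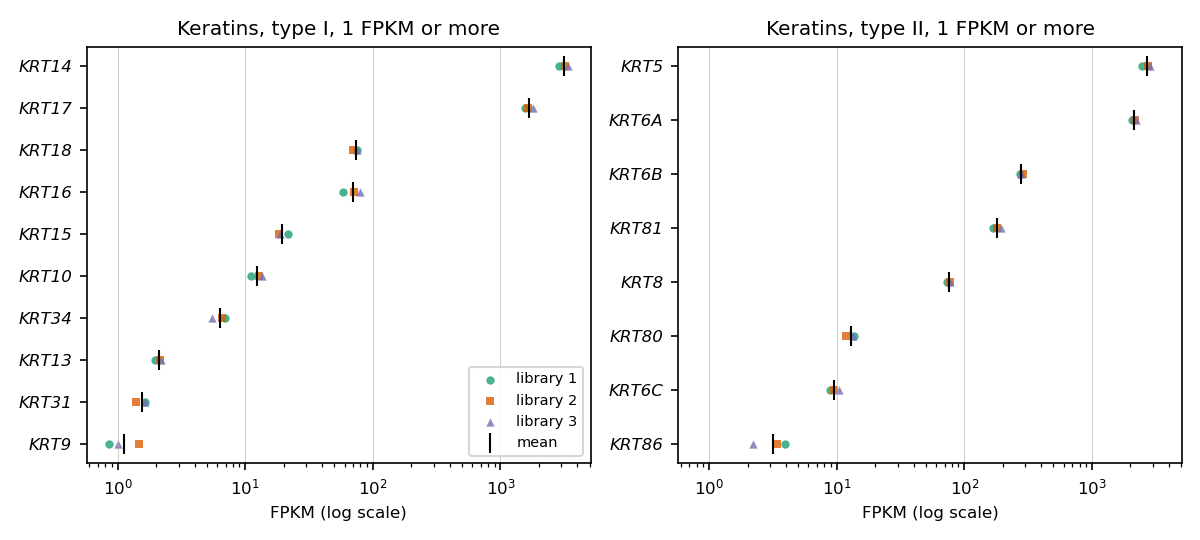
FPKM of the 10 type I and 8 type II keratin genes at 1 FPKM or more in the 3 control siRNA libraries, on a log axis, with 1 symbol per library and a bar at the mean. KRT14, KRT5, KRT6A and KRT17 lie above 1000 FPKM in every library, and the next gene, KRT6B, lies at 273 to 288 FPKM.

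The order of KRT14 and KRT5 depended on how length was counted. KRT14 exceeded KRT5 by a ratio of 1.17 ± 0.0123 in listed FPKM and the 3 values of the genes did not overlap. In raw counts the same ratio was 0.620, and with the length of the principal transcript in place of the listed length it was 0.945. The listed lengths, 4292 bases for KRT5 and 2281 bases for KRT14, add up all annotated exons, whereas the principal transcripts have 2531 and 1662 bases. Which of the pair was the more abundant can therefore not be read from these values.

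Keratins of activated epidermis came next. KRT6A was 7.70 ± 0.182 times as high as KRT6B, which had 273, 288 and 278 FPKM. KRT6C stood at 9.59 ± 0.712 FPKM, so KRT6B was 29.3 ± 2.05 times as high. KRT16, the usual type I partner of KRT6, had 58.7, 70.7 and 78.6 FPKM, and KRT17 was 24.3 ± 2.05 times as high as KRT16. The 3 KRT6 genes are close copies: 18.2% of the 100-base windows of the principal KRT6A transcript, 24.6% of those of KRT6B and 31.7% of those of KRT6C also occur in another annotated gene. Their split is therefore uncertain.

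The pair of simple epithelia was present as well. KRT8 stood at 76.1 ± 2.05 FPKM and KRT18 at 73.7 ± 3.23 FPKM, and their values in the 3 libraries overlapped. With the length of the principal transcript they stood at 246 and 152 FPKM. KRT19 and KRT7, which often accompany them in glands, stood at 0.0346 FPKM (4 counts in all) and 0.623 FPKM. EPCAM, an adhesion protein of simple epithelia, had 13.3 ± 0.196 FPKM, while the gland genes SCGB2A2, DCD and AQP5 had 0 counts.

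KRT81 is named for the hair shaft. It was listed at 166, 179 and 193 FPKM, came after KRT5, KRT6A and KRT6B among type II keratins, and 30.3% of its windows are shared with other genes, mostly KRT86, itself at 3.18 ± 0.887 FPKM. The type I hair keratins KRT34 and KRT31 had 6.34 ± 0.722 and 1.56 ± 0.145 FPKM, and KRT35, KRT36, KRT38, KRT85 and KRT82 had 0 counts. KRT15, a keratin of basal and hair follicle bulge cells, stood at 19.5 ± 1.67 FPKM, and KRT80 at 12.98 ± 0.931 FPKM. Keratins of differentiated epidermis were low. KRT10 had 11.1, 12.8 and 13.4 FPKM and KRT14 was 254 ± 5.19 times as high, while its partner KRT1 had 1 count in library 1 and 0 in the others. KRT2, of the upper epidermis, had 0 counts.

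Integrins bind the cell to laminin, fibronectin and collagen as alpha-beta pairs. Of 18 alpha subunit genes, 6 were expressed and 5 clearly so, beside 50.9% and 20.8% of all protein-coding genes. ITGA3 had 206, 220 and 233 FPKM and ITGA6 had 207, 189 and 176 FPKM, and the groups of values overlapped. The ratio of ITGA3 to ITGA6 was 1.72 in counts and 1.98 with the length of the principal transcript. Both encode laminin receptors. ITGA5, of the fibronectin receptor, followed at 76.5 ± 2.08 FPKM, ITGA2, of a collagen receptor, at 52.6 ± 8.57 FPKM, and ITGAV at 17.7 ± 2.34 FPKM. ITGA8 and ITGAD had 0 counts. Of 8 beta subunit genes, 4 were clearly expressed. ITGB4, which pairs with ITGA6 in the hemidesmosome, stood at 344, 350 and 375 FPKM, above ITGB1 at 192, 183 and 170 FPKM in every library, with a ratio of 1.97 ± 0.216. ITGB6, a partner of ITGAV, had 47.4 ± 4.83 FPKM.

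The hemidesmosome and its ligand were among the highest families. Of 29 laminin, hemidesmosome and anchoring genes, 21 were clearly expressed and 6 exceeded 100 FPKM, with a median of 24.4 FPKM against 1.17 FPKM over all protein-coding genes. The laminin chain LAMB3 stood at 982, 925 and 914 FPKM and LAMA3, which assembles with it, at 218, 197 and 185 FPKM. Library 1 was the highest for both. LAMB3 exceeded LAMA3 by a ratio of 4.71 ± 0.220 per listed length and of 3.72 with the length of the principal transcript. The ratio was 1.5 in counts, which are not divided by length. COL17A1, the transmembrane collagen of the hemidesmosome, was the steadiest of the group at 520 ± 2.08 FPKM. PLEC, which links it to keratin, had 316 ± 11.9 FPKM and FN1, fibronectin, had 255 ± 13.96 FPKM. COL7A1, the anchoring fibril collagen, stood at 66.0, 80.01 and 77.6 FPKM.

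**Figure D2:**
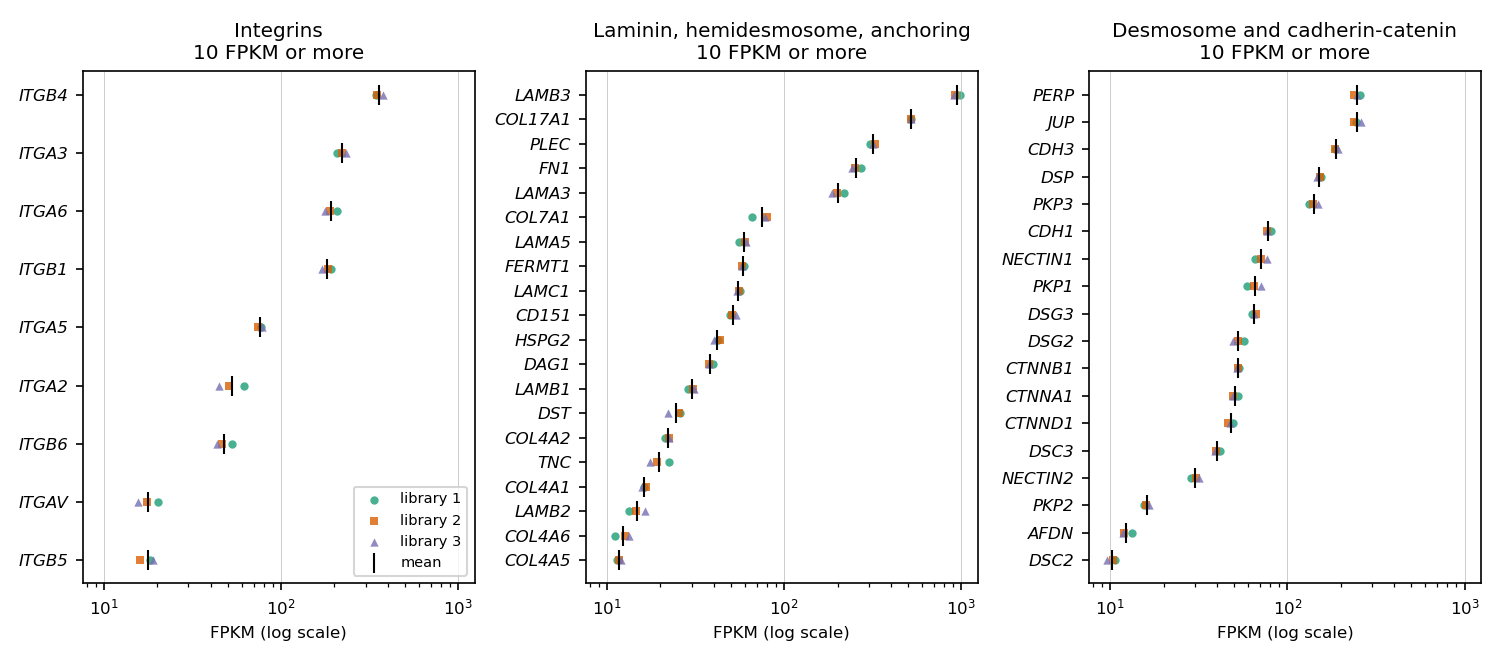
FPKM (log axis) of integrins, of laminin, hemidesmosome and anchoring genes, and of desmosome and cadherin-catenin genes at 10 FPKM or more, with 1 symbol for each of the 3 control siRNA libraries and a bar at the mean. LAMB3 lies at 914 to 982 FPKM, above ITGB4 at 344 to 375 FPKM and PERP and JUP at 237 to 261 FPKM.

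Desmosomes join keratinocytes to each other. Of 14 desmosome genes 10 were clearly expressed, and the other 4 were near 0. PERP, a membrane protein of desmosomes and a TP63 target, had 247 ± 8.32 FPKM and JUP, plakoglobin, had 247 ± 12.4 FPKM. DSP, the plakin that reaches the keratin filaments, had 151 ± 4.23 FPKM, and the plakophilins PKP3 and PKP1 had 141 ± 8.06 and 65.2 ± 5.92 FPKM. The cadherins of the basal desmosome were DSG3, at 63.3, 66.8 and 64.6 FPKM, DSG2, at 52.9 ± 3.55 FPKM, and DSC3, at 40.1 ± 1.32 FPKM. Those of the upper layers were close to absent from the counts, with 10 counts over the 3 libraries for DSG1 and 25 for DSC1. CDSN, of the cornified layer, had 2 counts, and 93.8% of its exon length overlaps other annotated genes.

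Adherens junction genes were led by a basal-layer cadherin. CDH3, P-cadherin, stood at 187, 185 and 193 FPKM and CDH1, E-cadherin, at 80.99, 76.7 and 76.5 FPKM. The groups did not overlap and the ratio was 2.41 ± 0.108. Catenins, which tie cadherins to actin, had close listed levels. CTNNB1 had 52.7 ± 0.827 FPKM, CTNNA1 50.5 ± 2.08 FPKM and CTNND1 47.8 ± 1.40 FPKM, and neighbours in this order overlapped. With the length of the principal transcript their levels were 133, 119 and 66.6 FPKM. NECTIN1 had 71.2 ± 5.59 FPKM. CDH2, N-cadherin, had 5 counts over the 3 libraries.

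Tight junction genes were lower. Of 24 claudin genes 6 were expressed, beside 50.9% of all protein-coding genes. CLDN1, the main epidermal claudin, was the only one above 10 FPKM, at 16.2, 15.8 and 15.7 FPKM. CLDN8, CLDN19, CLDN22 and CLDN25 had 0 counts. F11R, a junctional adhesion molecule, had 28.1 ± 1.30 FPKM and TJP1, the scaffold ZO-1, had 15.2 ± 0.621 FPKM. Gap junctions were represented by 4 clearly expressed connexins out of 21, a share near the 20.8% of all protein-coding genes. GJB2 had 96.7 ± 1.23 FPKM, GJB5 63.7 ± 4.72 FPKM and GJA1 59.5 ± 1.65 FPKM, and the values of the last pair overlapped. GJB1, the connexin of liver and myelin, had 0 counts.

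Receptor tyrosine kinases relay growth and guidance signals. Of 58 genes 20 were expressed (34.5%) and 12 had 0 counts, beside 50.9% and 22.3% of all protein-coding genes. EPHA2, an ephrin receptor, led at 135, 144 and 154 FPKM. DDR1, a collagen receptor, followed at 62.6 ± 2.54 FPKM. MET, the receptor of hepatocyte growth factor, had 46.2 ± 1.43 FPKM, EGFR had 49.1, 44.8 and 41.9 FPKM, EPHB4 had 44.2 ± 4.62 FPKM and MST1R had 42.0 ± 2.13 FPKM. Each of these 4 overlapped its neighbour in this order. ERBB2, a partner of EGFR, had 14.2 ± 0.555 FPKM and IGF1R 13.8 ± 0.548 FPKM. Receptors of vascular, neural and blood cells, such as FLT3, FLT4, TEK, TIE1 and NTRK3, had 0 counts.

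Among 49 interleukin, interferon and gp130 family receptors, 19 were expressed and 7 clearly so, beside 50.9% and 20.8% of all protein-coding genes. IL20RB, a chain of the receptors for the IL-20 cytokines, had 43.9, 49.9 and 53.0 FPKM, and IL4R, shared by interleukins 4 and 13, had 43.1, 45.0 and 43.6 FPKM. These overlapped. The interferon gamma receptor chains IFNGR2 and IFNGR1 had 20.9 ± 0.627 and 15.96 ± 0.471 FPKM, IL6R 19.04 ± 1.48 FPKM and OSMR, the oncostatin M receptor, 17.01 ± 1.07 FPKM. For the type I interferon receptor, IFNAR1 was listed at 8.71 ± 0.458 FPKM and IFNAR2 at 0.260 ± 0.186 FPKM. The exons of IFNAR2 overlap other annotated genes over 83.2% of their length, mainly AP000295.1, which also shares 87.8% of the windows of IL10RB (0.0792 FPKM). Neither low value can be read as low expression. Receptors of lymphoid and myeloid cells, IL2RA, IL2RB, IL10RA, CSF3R and IL5RA, had 0 counts.

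TNFRSF12A, the receptor of TWEAK, led the TNF receptor superfamily at 160, 177 and 173 FPKM, followed by TNFRSF21 at 73.7 ± 3.61 FPKM and the death receptor TNFRSF10B at 66.1 ± 1.59 FPKM. TNFRSF1A, the widespread TNF receptor, had 51.4 ± 2.03 FPKM. No neighbours in this order overlapped. Of the Toll-like receptors, TLR3, which senses double-stranded RNA, was the highest at 3.13, 3.47 and 4.001 FPKM, while TLR7, TLR8, TLR9 and TLR10 had 0 counts. Of 35 TGF-beta, Notch, Wnt and hedgehog receptors, 22 were expressed, beside 50.9% of all protein-coding genes. NOTCH1 led at 84.4, 90.1 and 96.7 FPKM, 11.3 ± 0.351 times NOTCH3, a receptor linked to the spinous layer. TGFBR2, the ligand-binding TGF-beta receptor, had 55.9 ± 1.64 FPKM and the frizzled receptor FZD6 27.2 ± 2.44 FPKM. LGR5, a stem cell marker of gut and hair follicle, had 0 counts.

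Of 56 G protein-coupled receptors chosen for skin, 11 were clearly expressed, a share near the 20.8% of all protein-coding genes. None reached 100 FPKM, but only 307 of the 19951 protein-coding genes did, so this does not set the receptors apart. F2RL1, the protease-activated receptor PAR2, had 26.1 ± 0.277 FPKM. CXCR4, CASR, EDNRB and HRH2 had 0 counts. Of 48 nuclear receptors, 18 were expressed and 9 clearly so, beside 50.9% and 20.8% of all protein-coding genes. The orphan receptors NR2F6 and ESRRA led, at 65.2, 61.7 and 82.4 FPKM and at 46.4 ± 3.89 FPKM. PPARD had 16.1 ± 0.720 FPKM, the vitamin D receptor VDR 15.4 ± 0.208 FPKM, RXRA 13.8 ± 1.34 FPKM and the glucocorticoid receptor NR3C1 11.4 ± 0.442 FPKM. PGR, the progesterone receptor, had 0 counts, as did NR5A1.

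**Figure D3:**
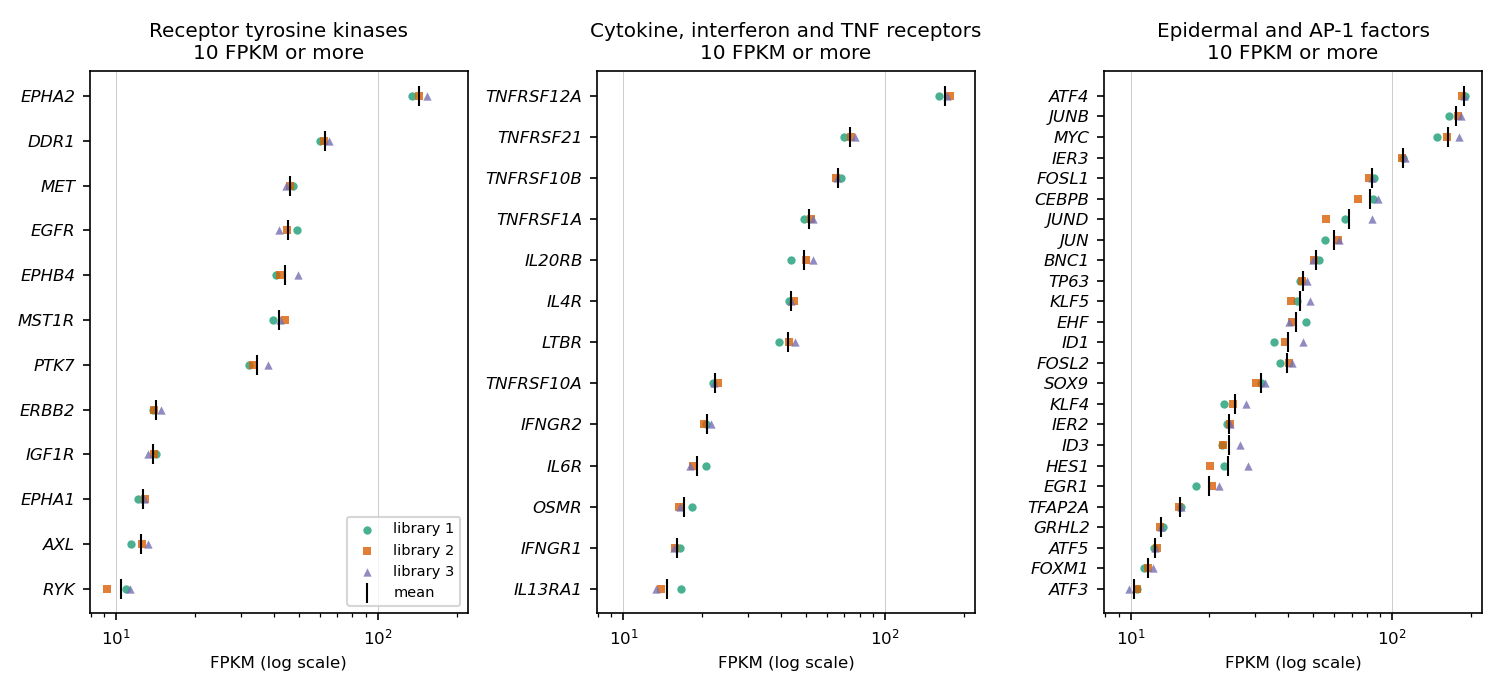
FPKM (log axis) of receptor tyrosine kinases, of cytokine, interferon and TNF family receptors, and of epidermal and AP-1 transcription factors at 10 FPKM or more, with 1 symbol for each of the 3 control siRNA libraries and a bar at the mean. EPHA2, TNFRSF12A and ATF4 lead their panels, at 135 to 154, 160 to 177 and 185 to 190 FPKM.

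The deposited annotation assigned 1548 protein-coding genes to transcription factor families, and 783 of them (50.6%) were expressed, close to the 50.9% of all protein-coding genes. Families differed. Of 191 homeobox genes 49 were expressed (25.7%) and of 17 T-box genes 3 (17.6%), whereas 33 of 48 bZIP genes (68.8%) and 18 of 22 MYB genes (81.8%) were. YBX1, which also binds RNA, was the highest of these genes at 572 ± 15.2 FPKM, followed by HMGA1, a chromatin protein, at 205 ± 14.7 FPKM.

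Of 39 epidermal factors, 28 were expressed (71.8%) and 14 clearly so. CEBPB, tied to differentiation and inflammation, had 84.6, 74.2 and 88.4 FPKM, and BNC1, a zinc finger protein of basal cells, 50.97 ± 1.29 FPKM. TP63, KLF5 and EHF stood at 45.7, 44.3 and 42.8 FPKM and overlapped their neighbours. ID1, an inhibitor of bHLH factors, had 40.0 ± 5.32 FPKM and SOX9, a hair follicle factor, 31.5 ± 1.30 FPKM. TFAP2B had 0 counts.

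Among 25 AP-1, ATF and immediate early genes, 19 were expressed, beside 50.9% of all protein-coding genes, and 4 exceeded 100 FPKM. ATF4, the main effector of the integrated stress response, had 190, 185 and 189 FPKM, JUNB 165, 179 and 184 FPKM and MYC 148, 162 and 180 FPKM. The JUNB and MYC values overlapped. IER3 had 111 ± 1.12 FPKM, FOSL1 83.5 ± 2.05 FPKM and JUN 60.1 ± 4.08 FPKM, whereas FOS, the quickly induced AP-1 partner, had 3.6 FPKM on average. MYCN and BATF had 0 counts. Of 28 factors of other lineages and of mesenchymal transition, 14 had 0 counts and 4 were expressed. The shares over all protein-coding genes were 22.3% and 50.9%. SNAI2, a Snail family repressor that basal keratinocytes also use, was alone above 10 FPKM, with 42.5, 40.9 and 38.03 FPKM. Its relative SNAI1 had 12 counts in all and ZEB1 14. PAX6, PAX3, MYOD1, SPI1 and GATA1 were among those at 0.

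HOX genes record the position of a cell along the body axis. Of 39 HOX genes 15 were expressed and 6 had 0 counts, beside 50.9% and 22.3% of all protein-coding genes. HOXA9 at 18.03 ± 1.03 FPKM and HOXC10 at 13.2 ± 1.61 FPKM were the highest. HOXA13, HOXB1, HOXB8, HOXB9 and HOXD13 were among the 6 with 0 counts. Exons of several HOX genes overlap each other or antisense genes, and the labels do not say whether reads were counted by strand.

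Genes of the layers above the basal layer ranged from high levels to 0 counts. Of 19 spinous layer genes 9 were expressed, a share near the 50.9% of all protein-coding genes. SFN, ANXA1 and SERPINB5 were high, at 1616, 157 and 146 FPKM. LYPD3 and DMKN had 15.8 ± 1.36 and 11.7 ± 0.447 FPKM, where DMKN would stand at 105.8 FPKM with the length of its principal transcript. KRT1 and DSG1 were near 0 as above, and KLK7, a protease of desquamation, had 0 counts. Of 40 cornified envelope and barrier genes, 16 were expressed (40.0%), 7 clearly so. CSTA, an inhibitor of cysteine proteases, had 77.04, 79.2 and 70.3 FPKM, the small proline-rich gene SPRR1B 42.3, 40.6 and 55.4 FPKM, SPRR2D 22.2 ± 0.987 FPKM, and IVL, involucrin, 9.95, 11.7 and 12.7 FPKM. LOR, loricrin, and RPTN, repetin, had 0 counts and FLG, filaggrin, 31 counts over its 12747 bases.

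Alarmins and protease inhibitors were higher. Of 26 such genes 14 were clearly expressed, beside 20.8% of all protein-coding genes, and 7 exceeded 100 FPKM. After S100A11 and S100A2 came S100A6 at 850 ± 38.2 FPKM, S100A14 at 587 ± 13.8 FPKM, S100A16 at 431 ± 13.5 FPKM and S100A10 at 422 ± 26.5 FPKM. S100A9, a subunit of calprotectin, had 172, 161 and 161 FPKM and exceeded its partner S100A8 (19.3 ± 2.12 FPKM) by 8.58 ± 0.786 times per listed length. The ratio was 4.89 in counts and 4.43 with the length of the principal transcript. The antimicrobial ribonuclease RNASE7 had 33.6 ± 1.41 FPKM, while the defensins DEFB1, DEFB4A and DEFB103A had 0 counts.

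Of 49 chemokines and cytokines, 23 were expressed and 6 clearly so, beside 50.9% and 20.8% of all protein-coding genes. IL1A and IL1B, the interleukin 1 cytokines, had 85.8, 80.2 and 73.4 FPKM and 68.9, 54.0 and 49.2 FPKM. CSF3, the neutrophil growth factor, had 60.5, 57.5 and 52.3 FPKM, IFNK, the interferon made by keratinocytes, 29.3, 37.9 and 36.3 FPKM, and CXCL16 25.2 ± 3.19 FPKM. Library 1 was the highest for IL1A, IL1B and CSF3 and the lowest for IFNK and CXCL16. CCL2, CXCL12, CXCL5, CXCL6 and IFNG had 0 counts.

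Several ligands of EGFR were clearly expressed. AREG, amphiregulin, was the highest of 39 growth factor genes at 317, 317 and 298 FPKM. FGFBP1, a carrier of fibroblast growth factors, had 220 ± 10.01 FPKM, TGFA 51.6 ± 1.70 FPKM, EREG 29.3 ± 1.77 FPKM and HBEGF 14.8 ± 1.42 FPKM. EGF itself was at 0.059 FPKM. JAG1, a Notch ligand, had 38.999 ± 0.564 FPKM, TGFB1 37.9 ± 4.46 FPKM and INHBA, an activin subunit, 33.8 ± 3.78 FPKM.

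TERT, the telomerase subunit introduced into this line (chromosome 5, 1253147 to 1295069, minus strand), had 265, 266 and 284 FPKM from 20359 to 21468 counts per library. The tables do not separate transcripts of a transgene from those of the native gene. CDKN2A and CDKN2B, neighbouring cell cycle inhibitors on chromosome 9 that are often lost in immortal keratinocytes, had 0 counts in every library. CDKN1A, another inhibitor of cyclin-dependent kinases, had 300, 307 and 326 FPKM. RB1 had 11.2 ± 0.671 FPKM and CCND1, cyclin D1, 66.9 ± 1.31 FPKM. Genes of DNA replication and mitosis were expressed in 32 of 32 cases, 25 of them clearly, with PCNA, the polymerase clamp, at 103, 108 and 113 FPKM, CDC20 at 61.6 ± 0.471 FPKM, TPX2 at 52.4 ± 1.13 FPKM and MKI67 at 21.0 ± 1.33 FPKM.

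The genes targeted elsewhere in the series differed in their control level. ATF3, a stress-induced factor, had 10.5, 10.5 and 9.84 FPKM from 653 to 712 counts a library. APOE, the lipid carrier apolipoprotein E, had 1.26, 1.62 and 1.42 FPKM from 46 to 59 counts. CXCL14, a chemokine of normal epithelium, had 0.212, 0.183 and 0.339 FPKM from 7, 6 and 11 counts. CXCL14 was thus below 1 FPKM in each control library. Genes of RNA interference itself were moderate: DICER1 had 9.98 ± 1.33 FPKM, AGO2 8.83 ± 0.879 FPKM, DROSHA 8.43 ± 0.207 FPKM and XPO5 11.5 ± 0.523 FPKM.

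Ribosomal protein genes formed a high and even block. Of 85 genes 80 were expressed and 53 exceeded 100 FPKM, with a median of 133 FPKM, and RPS2 led at 842 ± 15.4 FPKM. A pair of genes with low listed levels shares much of its sequence. RPS10 was listed at 0.546 ± 0.0801 FPKM with 92.4% of its windows shared, mainly with RPS10-NUDT3, and RPL36A at 0.842 ± 0.148 FPKM with 77.3% shared, mainly with RPL36A-HNRNPH2. The part of this sharing in the low values was not tested. The 13 mitochondrially encoded protein genes had a median of 984 FPKM, and library 1 was the highest for 13 of 13, against 34.5% of all clearly expressed protein-coding genes. Mitochondrial genes took 2.16 to 2.66% of the counts.

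Some families were nearly silent. Of 386 olfactory receptor genes 361 had 0 counts and none was expressed. None was expressed either of 94 hair keratin-associated protein genes (87 with 0 counts), 39 beta-defensin genes (38), 24 bitter taste receptor genes (14) and 18 late cornified envelope genes (10). The most counts any olfactory receptor had over the 3 libraries was 99, and the most for a late cornified envelope gene was 18. These 5 families were added after levels had been seen.

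**Figure D4:**
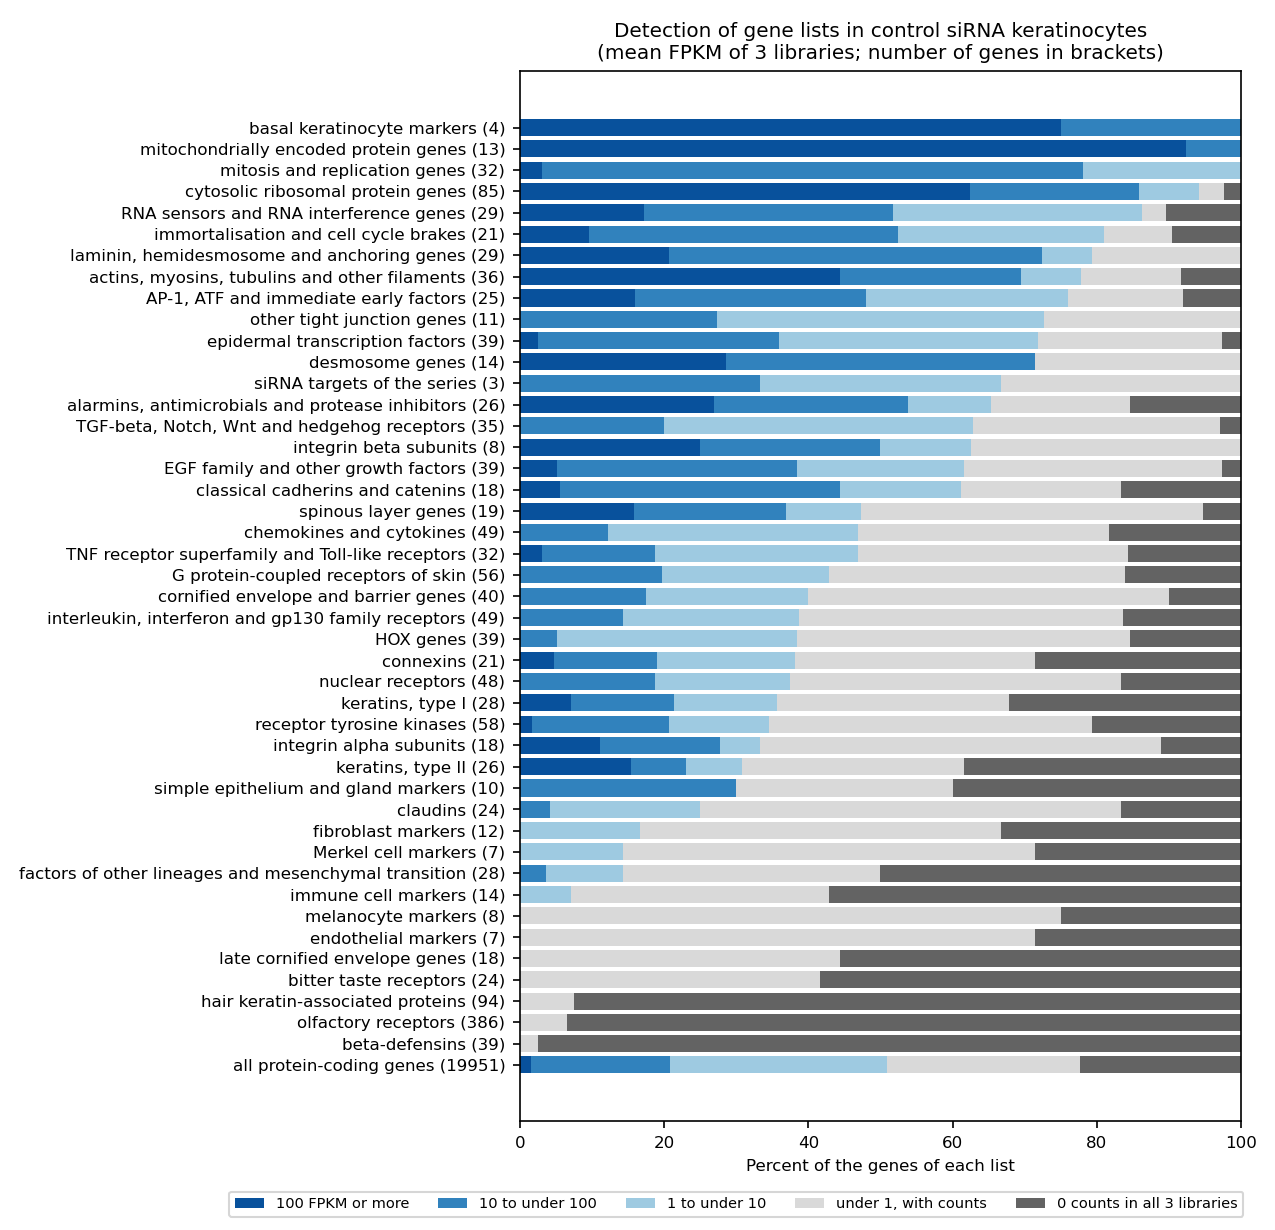
Share of each gene list, in percent of its genes, by mean FPKM in the 3 control siRNA libraries, from 100 FPKM or more (dark blue) to 0 counts in all 3 libraries (dark grey), with all 19951 protein-coding genes in the lowest bar. Mitosis and replication genes are expressed in 32 of 32 cases, against 50.9% of all protein-coding genes, 6 of 24 claudins and 0 of 386 olfactory receptors.

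The spread between libraries was small for most genes. Over the 4151 clearly expressed protein-coding genes the median coefficient of variation, the SD as a percentage of the mean, was 4.93%, with 1.77% and 10.6% as the 10th and 90th percentiles. Library 1 was the lowest for 42.4% of these genes and library 3 the highest for 46.3%. A coefficient of 25% or more was reached by 31 genes. The 10 largest belonged to SNRPG (52.2%), ODF3B (48.6%), TMEM238 (40.5%), ISG15 (40.1%), TYMP (40.0%), IFITM1 (39.5%), IGFBP6 (39.3%), CMPK2 (37.5%), FOXD1 (37.2%) and RSAD2 (36.9%). SNRPG, a spliceosome protein, rested on 146, 496 and 414 counts. FOXD1, a forkhead factor, was lowest in library 2, with 41.2, 21.5 and 47.8 FPKM.

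Many of the variable genes are interferon-stimulated. Interferons switch these genes on through factors of the STAT and IRF families, and their products act against viruses and double-stranded RNA. A list of 47 such genes was drawn up after their values had been seen, so its counts are a description. All 47 were expressed and 40 clearly so, with a median of 35.2 FPKM. Their median coefficient of variation was 21.9%, against 4.93% over all clearly expressed protein-coding genes. The list held 40 of those 4151 genes, 14 of the 31 genes at 25% or more and 4 of the 10 largest coefficients. The other 17 of the 31 lay outside it. Library 1 was the lowest for 40 of 40 and library 3 the highest for 37 of 40. The summed FPKM of the list was 4548, 6860 and 8245 in libraries 1, 2 and 3. In the list of RNA sensors and RNA interference genes, library 1 was the lowest for 14 of 15 clearly expressed genes. All of these except EIF2AK2, MAVS and XPO5 are also in the interferon list, so this count is not a separate result.

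The most abundant effectors showed the same order of libraries. IFI6 had 1531, 2470 and 2993 FPKM. ISG15, a ubiquitin-like modifier, had 460, 864 and 1101 FPKM. IFITM3, which blocks virus entry, had 562, 734 and 895 FPKM. Library 1 was the lowest in each. IFITM1, a relative of IFITM3, had 169, 312 and 397 FPKM, with 37.7% of its windows shared with other genes, and BST2, tetherin, had 187, 306 and 361 FPKM. The RNA sensors OAS3, OAS2, IFIH1 and DDX58 had means of 128.1, 123.2, 37.3 and 35.2 FPKM and coefficients of 21.5%, 19.6%, 20.5% and 15%, below the 40.1% of ISG15. IRF7 had 61.4, 85.7 and 104 FPKM. IRF9 was listed at 1.94 ± 0.267 FPKM, but 100% of the windows of its principal transcript are shared with AL136295.5, so this value is uncertain. Interferon transcripts other than IFNK were scarce, with 19 counts for IFNB1 and 21 for IFNL1 over the 3 libraries. The mitochondrial share of counts, highest in library 1, and the interferon list, lowest there, moved in opposite directions over the 3 libraries, and the part of library handling in this was not tested.

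The promoters of the list were searched for the letters GAAA, any 2 bases and GAAA again, the core of the interferon-stimulated response element, on both strands, in RefSeq windows (GRCh38.p14) from 250 bases before to 50 bases after each start. Matches may overlap each other. The motif was in a window of 25 of the 36 list members with an entry (69.4%). It was in 629 of 14896 protein-coding genes (4.22%) and 153 of 3378 clearly expressed ones (4.53%). The list was made of interferon-stimulated genes and the motif is the core of their response element, so a high share was built in. That share describes the list and not these libraries. Of the 31 genes with a coefficient of 25% or more, 20 had an entry and 6 held the motif. Outside the interferon list it was 0 of 11. The stretches around the matches are shown for the 5 most abundant members, since each holds the motif upstream of its start. They are written 5′ to 3′ on the gene's strand with matches in capitals.
IFI6 (chr1:27672261-27672363, minus strand): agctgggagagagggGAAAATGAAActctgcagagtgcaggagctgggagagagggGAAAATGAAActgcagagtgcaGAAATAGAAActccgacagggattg
ISG15 (chr1:1013369-1013414, plus strand): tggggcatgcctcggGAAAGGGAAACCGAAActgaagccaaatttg
IFITM3 (chr11:320871-320927, minus strand): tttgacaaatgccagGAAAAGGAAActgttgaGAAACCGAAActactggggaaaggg
IFITM1 (chr11:313985-314024, plus strand): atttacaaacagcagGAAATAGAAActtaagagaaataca
BST2 (chr19:17405730-17405775, minus strand): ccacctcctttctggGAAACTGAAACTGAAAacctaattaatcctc

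IFI6 holds 3 matches, at 156 to 93 bases before its start, and ISG15, IFITM3 and BST2 hold 2 each, while IFITM1 holds 1, at 40 bases. A match is a run of letters, and occupancy by a factor was not measured.

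**Figure D5:**
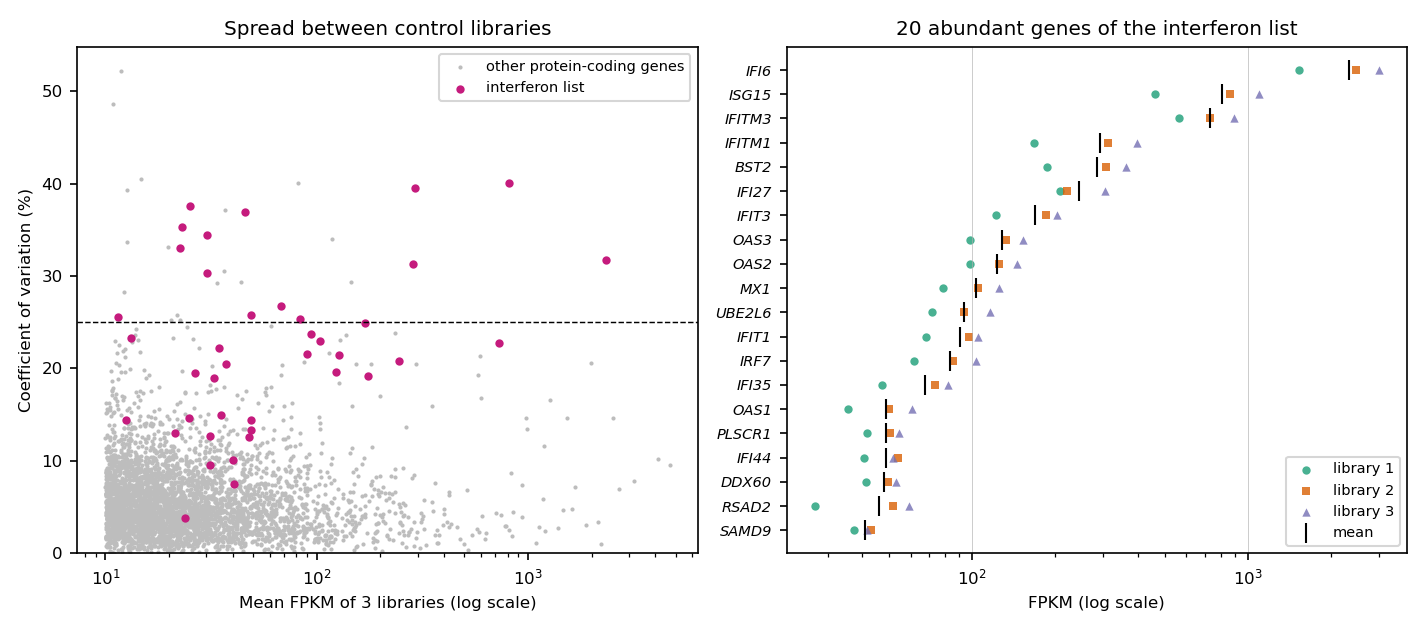
Left, coefficient of variation between the 3 control siRNA libraries against mean FPKM (log axis) for 4151 protein-coding genes at 10 FPKM or more, with the 40 such members of the interferon list in pink and a dashed line at 25%. Right, FPKM (log axis) of 20 of the most abundant members by library, with a bar at the mean: library 1 is the lowest for each of them.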

How the data were processed

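RNA-seq was read from the authors' deposited tables, which give whole-number counts per gene and FPKM for the same 58735 genes. Per the labels' protocols, messenger RNA was taken on poly-T beads and copied with random hexamers. HISAT2 2.0.5, featureCounts 1.5.0-p3 and the hg38 build are named in the submitters' processing notes. The annotation and the strand setting are not given in the sources used here. Gene lengths in the deposited tables equalled the union of exons in GENCODE 29 for 100% of genes. The deposited FPKM equalled counts per kilobase per 1.01 to 1.02 times each library's total count. A table of group means was not used, and 0 sample columns were left unmapped.

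Levels were summarised as mean and SD over the 3 control libraries with pandas 2.3.3, with no contrast and no test. Neighbours in a list were called overlapping where their 3 values overlapped. The dispersion of the counts was estimated with edgeR 4.0.16, after a check on simulated data, and gave a common biological coefficient of variation of 7.37% over 13303 genes. Shared sequence is the share of 100-base windows of a gene's principal GENCODE 29 transcript found in another gene. Members and lists were chosen with earlier results of these data known. The 6 added lists and the motif were chosen after values were seen. The rule for named genes took the 25 highest protein-coding genes, the 5 highest of other biotypes, the markers and siRNA targets, up to 8 members of each list at 10 FPKM or more and up to 5 at 0 counts, and the 10 largest coefficients of variation. Other genes named, such as KRT1, DSG1, IFNAR2, RPS10 and FOS, were chosen after their values were seen. Alternatives were other thresholds, TPM, other scalings, other gene lengths and leaving out each library. Some genes, which are also left out of the plots that name genes, are not reported here.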

Additional observations from a re-analysis of the deposited data

How the results depend on the processing

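The number of expressed protein-coding genes, 10160, ranged from 9022 (2 FPKM) to 11891 (10 counts in each library), and from 10160 to 10174 without a library. The totals of expressed list members (566), of genes with 0 counts (34079) and of neighbours whose values did not overlap (175 of 334 pairs) also stayed within 1.5 times under the alternatives run. Some alternatives for the neighbours were chosen after seeing the data. The number of expressed members moved further in some of the 39 single lists. These were 5 lists at 2 FPKM, 5 with 10 counts in each library, 3 by the lowest library and 2 at 0.5 FPKM. The share of the 25 highest protein-coding genes was 11.9% in CPM, not divided by length, 15.9% without mitochondrially encoded genes and 15.02% with the length of the principal transcript, an alternative chosen after seeing the data, in place of 18.3%. Without a library it was 17.96 to 18.5%. The median coefficient of variation was 9.13% with no filter but a mean above 0, which lets in genes of few counts, and 3.53 to 5.40% without a library. As TPM, levels of named genes were 3.94 to 3.95 times the FPKM. With principal transcript lengths they were 1 to 9.08 times as high (the highest for DMKN), with a median of 1.24. No paired analysis was possible because a single group is described and no groups are compared.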
